A study of Rattus norvegicus with 4 samples.

Results

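The 10 genes described here encode the ligands, receptors and signal carriers of the TGF-beta and activin pathway: Tgfb1, Tgfb2, Tgfb3 and Inhba, the receptors Tgfbr1, Acvr1b, Tgfbr2 and Tgfbr3, and the SMADs Smad2 and Smad3. They were taken by name from the 23360 gene symbols of the files, with earlier results of these data known. All 10 were listed there, and 5 reached the level needed for a test. The RNA came from INS-1 832/3, an insulin-secreting line of a rat insulinoma that also carries the human insulin gene, grown under 2 conditions with 2 biological replicates each. In 2D culture the cells grew as a standard monolayer. In 3D culture they had been bioprinted in GelXA LAMININK 411, a gelatin-based hydrogel with laminin that is cured with light. Both were grown in the same RPMI-1640 medium with fetal bovine serum and Geneticin, and were harvested at passage 3 after 5 days. Printing, curing, hydrogel and growth in 3 dimensions came together, so their parts in a difference cannot be told apart, and all cells belong to 1 tumor line.

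TGF-beta dimers are secreted in a latent form and, once released, bind the type II receptor TGFBR2, which then phosphorylates the type I receptor TGFBR1. Activins, dimers of inhibin beta chains, use the type II receptors ACVR2A and ACVR2B together with the type I receptor ACVR1B. Both type I receptors phosphorylate SMAD2 and SMAD3, which enter the nucleus with SMAD4. In the pancreas the pathway is known for its part in islet development and in the growth and maturity of beta-cells.

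The values are TPM, which correct for transcript length and sum to 1000000 in each sample, so that levels of different genes can be compared. Sample values, means and SDs are given as deposited. Log2 fold changes are those of 3D over 2D culture on log2(TPM + 1) after scaling between samples, and understate the change of genes below a few TPM. Genes with a mean of at least 1 TPM over the 4 samples were tested with limma, with p-values adjusted over all 11960 of them, and a gene with an adjusted p below 0.05 is said to have risen or fallen. For 1 gene alone, 2 samples per group allow no two-sided exact permutation p smaller than 0.333, so each call leans on the spread that limma shares between genes. TPM do not give the number of reads behind a value, and no counting error was computed here.

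All 9 beta-cell marker genes analysed were above 0 in every sample, with summed levels of 147547 and 160470 TPM in 2D culture and of 157794 and 170365 TPM in 3D culture, most of it Ins1. Of these 9, Ins2 fell from 13237 and 13340 TPM to 8957 and 9326 TPM (log2 fold change -0.58, adjusted p = 0.0095), Slc2a2, the GLUT2 gene, rose (log2 fold change 0.39, adjusted p = 0.0075), and 7 did not pass. Markers of endothelial cells summed to 1.08 and 1.15 TPM in 2D and to 1.40 and 1.68 TPM in 3D culture, with Cdh5 and Tie1 at 0 throughout among the 5 analysed. Those of fibroblasts and stellate cells summed to 1.90 and 1.90 TPM in 2D and to 2.33 and 2.24 TPM in 3D culture, with Lum and Pdgfrb at 0 among the 5 analysed and Pdgfra giving nearly all of the sum. The 6 macrophage genes summed to 0.831 and 0.562 TPM in 2D and to 1.00 and 1.58 TPM in 3D culture, with Ptprc at 0. The 5 genes of other islet cells summed to 42.2 and 74.4 TPM in 2D and to 124.5 and 155.6 TPM in 3D culture. Almost all of it was Gcg, the glucagon gene, which rose (log2 fold change 1.26, adjusted p = 0.0217), while Ghrl was at 0. In a limma fit of all genes above 0 in any sample, Gcg and Ins2 did not pass (adjusted p = 0.0635 and 0.0891). Slc2a2 did (0.0204). Fewer cells of a type and less RNA per cell cannot be told apart in such bulk samples, and the part of these markers in the results was not tested.

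Tgfb2 was the ligand that set 3D culture apart. It encodes TGF-beta 2, the isoform that binds the type II receptor only weakly without the coreceptor betaglycan. Its levels were 0.100 and 0.151 TPM in 2D culture and 8.53 and 5.16 TPM in 3D culture. Both 3D samples lay far above both 2D samples. The means were 0.126 ± 0.0361 TPM (SD, n = 2) and 6.84 ± 2.38 TPM (SD, n = 2), a ratio of 54.5, and the ratio of any 3D to any 2D sample lay between 34.1 and 85.3. The log2 fold change was 2.74, with a 95% interval from 2.19 to 3.30 and an adjusted p of 0.0037. Only 4 of the 11960 genes tested had a larger rise. Because the 2D level was so low, the size depends on the pseudocount: it was 3.49 with 0.5 and 4.87 with 0.1 in place of 1. Tgfb2 reached the filter through the 3D samples alone, which by itself requires a difference. Without the filter, among 16749 genes above 0 in any sample, its adjusted p was 0.0171. In rank, it stood at percentiles 9.12 and 11.2 of the genes above 0 in the 2D samples and at 47.0 and 38.8 in the 3D samples.

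The files list 2 transcripts of Tgfb2. ENSRNOT00000003313.5 had 0.100 and 0.151 TPM in 2D and 5.81 and 3.50 TPM in 3D culture. ENSRNOT00000087023.1 was listed at 0 in both 2D samples and at 2.72 and 1.66 TPM in the 3D samples, where it made up 31.9% and 32.2% of the gene. The division between the transcripts was thus nearly the same in both 3D samples although their totals differed.

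The other ligand genes were low in both conditions and none reached the filter. Tgfb1, whose product is the isoform best known from immune cells and fibrosis, had 0.215 and 0.253 TPM in 2D and 0.543 and 0.370 TPM in 3D culture. Tgfb3, the third isoform, had 0.449 and 0.375 TPM in 2D and 0.487 and 0.621 TPM in 3D culture. For both genes the 3D samples were the higher ones and the groups did not overlap, but all values were under 1 TPM. Inhba, which encodes the inhibin beta A chain of activin A, had 0.394 and 0.193 TPM in 2D and 0.594 and 0.383 TPM in 3D culture, and here the groups overlapped. In a fit without the filter the adjusted p was 0.109 for Tgfb1, 0.229 for Tgfb3 and 0.276 for Inhba, with log2 fold changes of 0.23, 0.12 and 0.19. In that fit 21.4% of all genes had an adjusted p below 0.05.

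**Figure D1:**
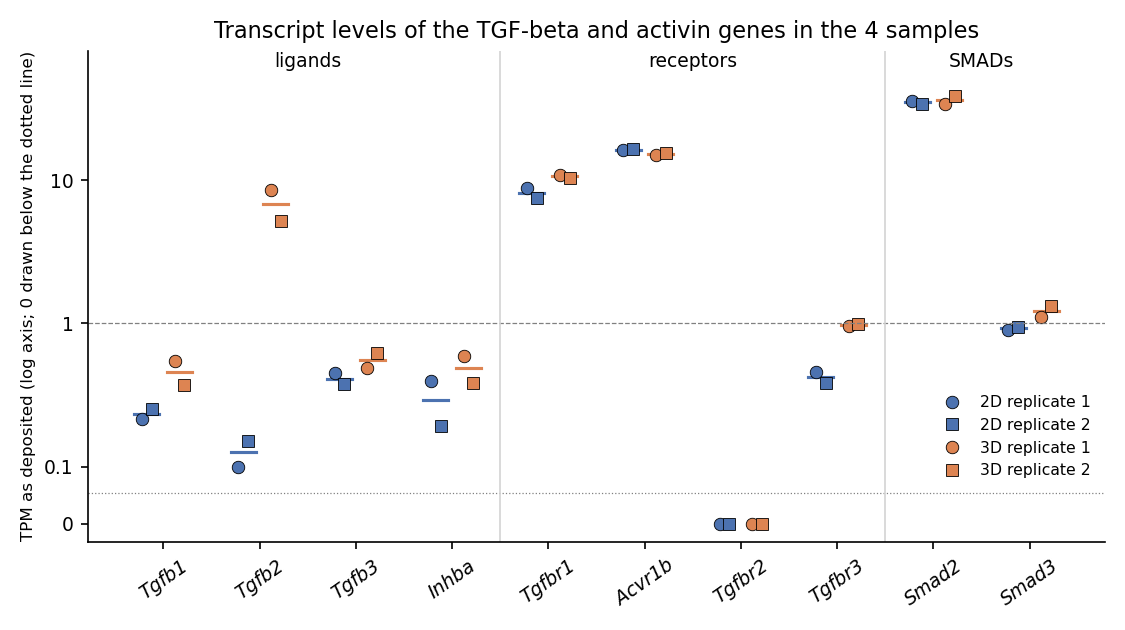
Level of each gene in each sample in TPM as deposited, on a log axis with 0 drawn below the dotted line. Circles are replicate 1 and squares replicate 2, blue is 2D and orange 3D culture, short bars are group means of 2 samples, and the dashed line marks 1 TPM. Tgfb2 moves from 0.126 to 6.84 TPM on average, whereas Tgfbr2 sits at 0 in all 4 samples.

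The make-up of the TGF-beta ligand transcripts differed between the cultures. Tgfb1, Tgfb2 and Tgfb3 together had 0.764 and 0.778 TPM in 2D and 9.56 and 6.15 TPM in 3D culture. Tgfb2 made up 13.1% and 19.4% of this sum in the 2D samples and 89.2% and 83.9% in the 3D samples. Tgfb3 was the most abundant of the 3 in both 2D samples, with 58.8% and 48.1%, and made up 5.10% and 10.1% of the sum in 3D culture although its own level was no lower. The stacked bars of the ligand transcripts show this change to be carried by Tgfb2.

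**Figure D2:**
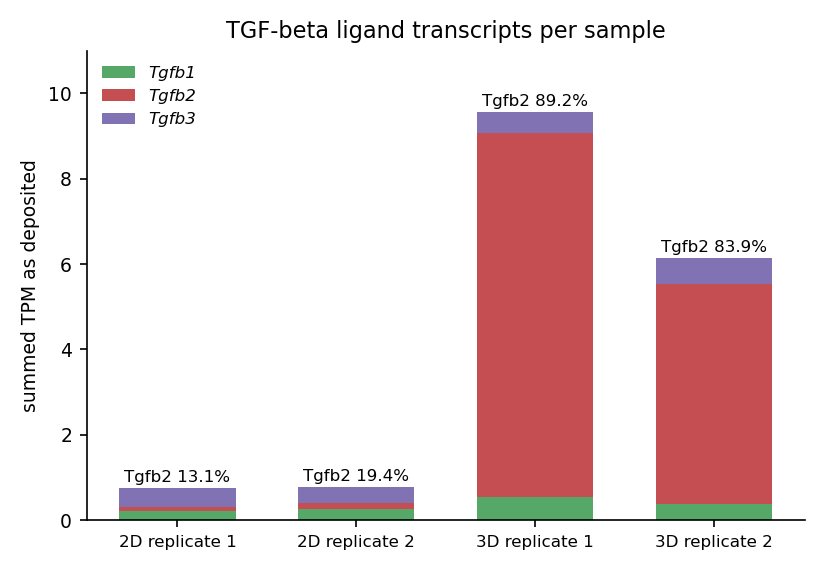
Summed TPM of Tgfb1 (green), Tgfb2 (red) and Tgfb3 (purple) in each sample, with the share of Tgfb2 written above each bar. The sum is 0.764 and 0.778 TPM in the 2D samples and 9.56 and 6.15 TPM in the 3D samples.

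The receptor genes ran from 0 to about 16 TPM. Tgfbr2, which encodes the type II receptor that all TGF-beta isoforms signal through, was listed at 0 in each of the 4 samples, for its only listed transcript, ENSRNOT00000037883.4. Of all 23360 genes, 28.3% were at 0 in every sample. None of 12 genes that every cell uses was, from Actb to Ywhaz. These 12 are abundant and were chosen after the data were seen, so they do not bear on the 0 of Tgfbr2. An exact 0 in estimated values can be a failed estimate, so the listing alone does not show that the transcript was absent.

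The promoters of Tgfb2, the gene with the largest rise, and of Tgfbr2, the gene listed at 0, are shown, from 250 bases before to 50 after a transcript start in RefSeq (build GRCr8, not the build of the files). Tgfb2 lies at chr13:100792636-100792935 and Tgfbr2 at chr8:124761420-124761719, both on the minus strand. Capitals mark ACGTG or its reverse complement CACGT, a form of the core of a hypoxia response element. Other forms of the core were neither marked nor counted.
Tgfb2: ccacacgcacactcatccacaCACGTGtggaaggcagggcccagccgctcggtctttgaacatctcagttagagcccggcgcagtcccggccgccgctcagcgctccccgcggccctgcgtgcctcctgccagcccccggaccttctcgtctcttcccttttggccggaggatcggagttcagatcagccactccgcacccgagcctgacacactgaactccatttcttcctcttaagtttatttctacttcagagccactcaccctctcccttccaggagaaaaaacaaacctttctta
Tgfbr2: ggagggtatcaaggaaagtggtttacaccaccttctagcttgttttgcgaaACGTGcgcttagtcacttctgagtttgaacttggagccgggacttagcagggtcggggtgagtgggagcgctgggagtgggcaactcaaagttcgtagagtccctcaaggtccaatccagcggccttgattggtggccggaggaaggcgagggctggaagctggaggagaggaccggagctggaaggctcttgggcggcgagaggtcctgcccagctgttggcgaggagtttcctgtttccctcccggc
In Tgfb2 the capitals begin 229 bases before the start and form the palindrome CACGTG, an E-box, in which both core matches overlap. In Tgfbr2 they begin 199 bases before it. This form of the core was found, on either strand, in 19.3% of the 33469 RefSeq windows of this length. It was also in those of 3 of the 10 genes, the other being Acvr1b. The E-box was found in 6.42% of all windows and in those of Tgfb2 and Acvr1b. The GC box GGGCGG was held by 33.1% of all windows and by those of 6 of the 10 genes, all of them receptors or SMADs. The letters CAGAC, to which SMADs bind, were in 50.1% of all windows and in that of Inhba alone among the 10. None of the 10 held the cAMP response element TGACGTCA (1.83% of all windows) or the AP-1 site TGAGTCA (4.63%). These are matches of letters and not measured binding.

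Tgfbr1, the type I receptor for TGF-beta, had 8.80 and 7.46 TPM in 2D and 10.9 and 10.4 TPM in 3D culture. Both 3D samples were above both 2D samples. It rose by a log2 fold change of 0.31 (95% interval 0.10 to 0.53, adjusted p = 0.0373), close to the threshold. The adjusted p was 0.0773 without the filter. With 1 sample left out, the log2 fold change and adjusted p were 0.24 and 0.105 without 2D replicate 2, 0.27 and 0.210 without 3D replicate 1, and 0.36 and 0.122 without 3D replicate 2. Its second listed transcript, ENSRNOT00000081090.1, was at 0 throughout.

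Acvr1b, the type I receptor for activin, had 16.2 and 16.4 TPM in 2D and 14.9 and 15.5 TPM in 3D culture. It was the 1 gene of the 10 whose 3D samples were both lower, but the difference did not pass the test (log2 fold change -0.14, 95% interval -0.30 to 0.03, adjusted p = 0.160). The ratio of Tgfbr1 to Acvr1b transcripts was 0.545 and 0.455 in the 2D samples and 0.731 and 0.671 in the 3D samples. The sum of both genes was 25.0 and 23.8 TPM in 2D and 25.8 and 25.8 TPM in 3D culture. The groups overlapped neither in the ratio nor in the sum, and neither was tested. Of all genes above 0, 38.4% were higher and 26.1% lower in both 3D samples than in both 2D samples.

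Tgfbr3 encodes betaglycan, a coreceptor that presents TGF-beta 2 to the type II receptor and also binds inhibin. It had 0.459 and 0.383 TPM in 2D and 0.960 and 0.984 TPM in 3D culture, and the ratio of the group means was 2.31. Its mean over the 4 samples was under the filter. Both 3D samples were above both 2D samples. Its log2 fold change was 0.46, with an adjusted p of 0.0201 in the fit without the filter, and with pseudocounts of 0.5 and 0.1 it was 0.65 and 1.01.

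The SMADs that both receptors act on differed widely in level and little between the cultures. Smad2 was the most abundant of the 10 genes, with 35.8 and 34.2 TPM in 2D and 34.0 and 38.9 TPM in 3D culture. The groups overlapped, and the 95% interval of the log2 fold change of 0.011 ran from -0.18 to 0.20 (adjusted p = 0.915). Of its 3 listed transcripts, ENSRNOT00000046847.4 held between 71.4% and 87.8% of the gene in every sample. The least abundant in 2D culture, ENSRNOT00000089468.1, had 2.20 and 0.291 TPM there and 3.64 and 4.98 TPM in 3D culture, with no overlap but a wide spread between the 2D samples.

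Smad3 had 0.902 and 0.941 TPM in 2D and 1.11 and 1.31 TPM in 3D culture. Both 3D samples were the higher ones, and it too reached the filter through them alone. The log2 fold change of 0.18 did not pass the test (95% interval -0.16 to 0.51, adjusted p = 0.324). Smad2 exceeded Smad3 by 39.7 and 36.3 times in the 2D samples and by 30.6 and 29.6 times in the 3D samples. The groups did not overlap in this ratio, which was not tested.

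Among the 10 genes, then, Tgfb2 and Tgfbr1 rose, none fell, 3 tested genes did not pass and 5 were under the filter. Of all genes tested, 38.0% passed, with 18.5% higher and 19.5% lower in 3D than in 2D samples. The TPM of 6 of the 10 genes were higher in both 3D samples than in both 2D samples, which also held for 38.4% of all genes above 0, and 1 of the 10 was lower in the same sense, as were 26.1% of all. The plot of differences by gene shows how far Tgfb2 stands from the others.

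**Figure D3:**
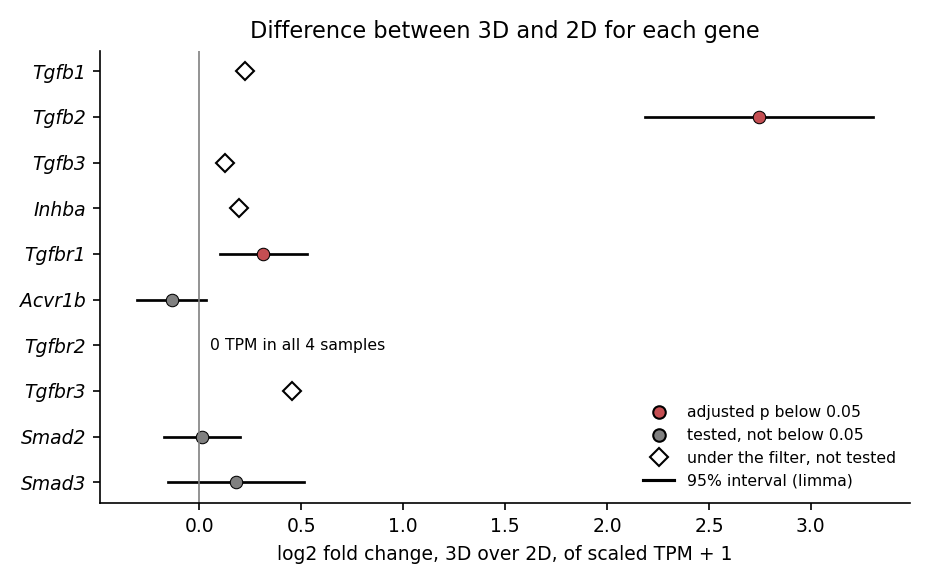
Log2 fold change of 3D over 2D culture for each gene on the scale of scaled TPM + 1. Filled points were tested, red with an adjusted p below 0.05 and grey above it, lines are 95% intervals from limma with 2 samples per group, and open diamonds are genes under the filter. Tgfb2 lies at 2.74 and the other genes between -0.14 and 0.46, with Tgfbr2 at 0 TPM.

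Ordered by mean level, the genes in 2D culture ran from Smad2 through Acvr1b, Tgfbr1 and Smad3 to Tgfbr3, Tgfb3, Inhba, Tgfb1 and Tgfb2, with Tgfbr2 last. The samples of neighbours overlapped between Tgfbr3 and Tgfb3, Tgfb3 and Inhba, and Inhba and Tgfb1, and were apart elsewhere. In 3D culture Tgfb2 moved from the ninth place to the fourth, behind Tgfbr1 and ahead of Smad3, and overlapping neighbours were Tgfb3 with Inhba and Inhba with Tgfb1. No other gene changed its order relative to the rest.

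Of the 11960 genes tested, those whose log2 levels followed Tgfb2 most closely over the 4 samples were Fgfr3, Mylip and Ccl9, with Pearson correlations of 0.99998, 0.99995 and 0.99994. Fgfr3 went from 1.197 and 1.163 TPM in 2D to 3.41 and 2.86 TPM in 3D culture. With only 4 samples in 2 groups such values are common, and 541 genes exceeded 0.99.

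Further genes of the pathway were taken from 7 lists by role, 78 symbols in all, of which 77 were analysed and 38 tested. Of these 38, 13 rose and 2 fell, beside the shares of 18.5% and 19.5% over all genes, and their median log2 fold change was 0.21 against -0.0031 over all genes tested. No list was tested as a set.

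Of 10 other ligands of the family, 5 were at 0 in all samples, 2 were tested and neither passed. Gdf11, which signals through activin receptors, was the most abundant of these, with 21.7 and 19.2 TPM in 2D and 25.0 and 24.0 TPM in 3D culture (log2 fold change 0.21, adjusted p = 0.0633). Inhbb, the beta B chain of activin B, exceeded Inhba in every sample, with 1.33 and 1.39 TPM in 2D and 1.09 and 1.41 TPM in 3D culture (adjusted p = 0.589). Among 15 genes of latency and activation, 3 were tested and Ltbp3 rose. It encodes a protein that holds latent TGF-beta in the matrix, and went from 31.1 and 32.5 TPM to 41.0 and 41.1 TPM (log2 fold change 0.32, adjusted p = 0.0189). Its call was lost without 3D replicate 1 (adjusted p = 0.132) or 3D replicate 2 (0.106).

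Of 7 further receptors and coreceptors, 3 were tested and none passed. The activin type II receptor Acvr2a had 4.25 and 3.11 TPM in 2D and 5.06 and 5.08 TPM in 3D culture (log2 fold change 0.35, adjusted p = 0.0709), and Acvr2b had 1.12 and 1.15 TPM in 2D and 1.39 and 1.29 TPM in 3D culture (adjusted p = 0.523). Together the activin type II receptors had 5.36 and 4.26 TPM in 2D and 6.45 and 6.37 TPM in 3D culture, where Tgfbr2 was at 0. Of the 6 inhibitors at the cell surface or outside it, 4 were tested and Bambi, a decoy receptor that lacks a kinase, rose from 12.6 and 13.9 TPM to 17.2 and 18.4 TPM (log2 fold change 0.36, adjusted p = 0.0290). That call was lost without the filter (adjusted p = 0.0643), and without 2D replicate 1 (0.0576), 3D replicate 1 (0.131) or 3D replicate 2 (0.154).

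Among 5 other SMADs and their anchors, 3 were tested. Smad4, the common partner of the receptor-activated SMADs, rose from 33.4 and 26.1 TPM to 38.9 and 39.9 TPM (log2 fold change 0.36, adjusted p = 0.0359). It did not pass without the filter (adjusted p = 0.0765), without the intensity trend (0.0547), or without 2D replicate 2 (0.0520), 3D replicate 1 (0.162) or 3D replicate 2 (0.153). Smad7, the inhibitory SMAD that the pathway induces against itself, had 1.88 and 1.75 TPM in 2D and 1.92 and 2.27 TPM in 3D culture, with an adjusted p of 0.486.

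Of 15 regulators inside the cell, 13 were tested, 3 rose and 1 fell, beside shares of 18.5% and 19.5% over all genes tested. Usp9x, a deubiquitinase that acts on SMAD4, rose with a log2 fold change of 0.45 (adjusted p = 0.0176), and Ldlrad4, which dampens SMAD signaling at the membrane, with 0.65 (adjusted p = 0.0258). Skil, the gene of the SMAD corepressor SnoN, had a log2 fold change of 0.53 at an adjusted p of 0.0497, and 7 of 12 other settings gave a value above 0.05. Fkbp1a, whose product FKBP12 keeps type I receptors inactive, fell from 267 and 256 TPM to 234 and 234 TPM (log2 fold change -0.20, adjusted p = 0.0312). With the replicate number as a block its adjusted p was 0.0569, and it passed in 6 of 12 other settings. Leaving out either 3D replicate ended the calls of Usp9x and Ldlrad4, with adjusted p between 0.0785 and 0.150, and Ldlrad4 also lost its call without 2D replicate 2 (0.0631) or the filter (0.0665).

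The list of target genes known from textbooks had 20 symbols, of which 19 were analysed and 10 tested. Of these 10, 7 rose and 1 fell, beside shares of 18.5% and 19.5% over all genes tested. The list was drawn up with earlier results of these data known and was not tested as a set. Many of these genes answer to other signals as well. The smallest p-values were those of Bhlhe40, Fn1, Cdkn1a and Junb. Bhlhe40, a transcriptional repressor, rose with a log2 fold change of 1.86 (adjusted p = 0.0014) and Fn1, the fibronectin gene, with 1.69 (adjusted p = 0.0014). Junb, a subunit of AP-1, rose by 1.03 on the log2 scale (adjusted p = 0.0037). Cdkn1a, a cell cycle inhibitor that TGF-beta is known to raise, fell by 1.29 on the log2 scale (adjusted p = 0.0036). The other 4 that rose were Klf10, Klf11, Il11 and Myc, named to complete the list. Klf10 and Klf11, transcription factor genes known as early TGF-beta targets, rose by 0.81 (adjusted p = 0.0046) and 0.70 (adjusted p = 0.0044) on the log2 scale. Il11, a cytokine gene that TGF-beta is known to raise, rose by 0.46 (adjusted p = 0.0382), and Myc, which TGF-beta is known to lower in epithelial cells, by 0.57 (adjusted p = 0.0081). Without 3D replicate 1 the adjusted p was 0.0525 for Junb, 0.0574 for Klf10, 0.0603 for Klf11 and 0.0651 for Myc. Il11 lost its call with any of the 4 samples left out, at adjusted p from 0.0566 to 0.152.

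Among the target genes that were not called, Tgfbi and Ccn2 are given as examples chosen after their values were seen. Tgfbi, named for its induction by TGF-beta, had 26.1 and 26.1 TPM in 2D and 24.5 and 28.8 TPM in 3D culture (log2 fold change -0.019, adjusted p = 0.876). Ccn2, a matrix-associated growth factor gene, was under the filter with 0.135 and 0.229 TPM in 2D and 0.144 and 0.141 TPM in 3D culture. The plot of the pathway lists shows the spread of the targets from Cdkn1a to Bhlhe40 beside the narrower range of the upstream lists.

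**Figure D4:**
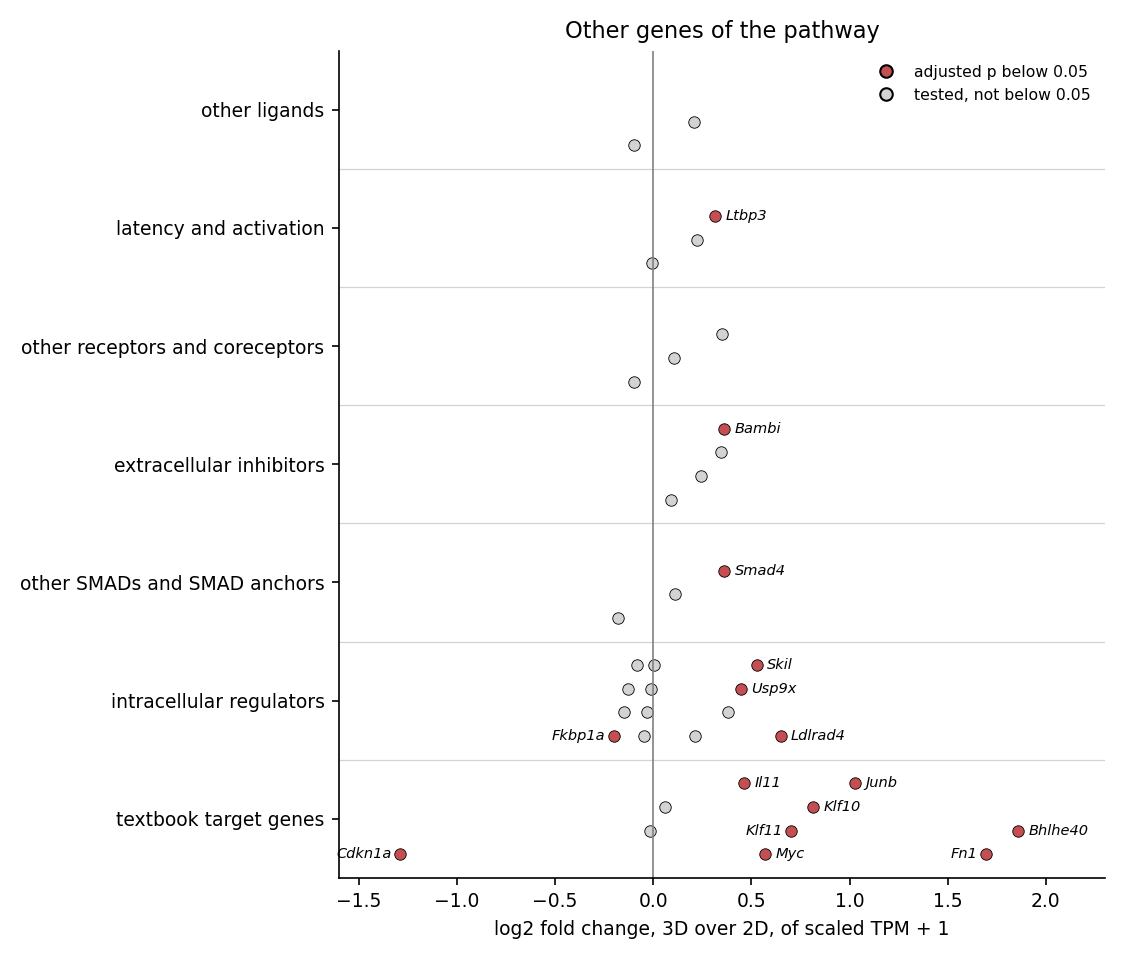
Log2 fold change of 3D over 2D culture on the scale of scaled TPM + 1 for the 38 tested genes of 7 lists by role, each point 1 gene, spread vertically within its list for legibility alone. Red points with names have an adjusted p below 0.05 in limma, 13 higher and 2 lower in 3D culture, and grey points do not.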

How the data were processed

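Poly(A) RNA of 4 samples, 2 of 2D and 2 of 3D culture, had been sequenced as 75-base single-end reads of stranded libraries. Per the methods and the submitters' processing notes, the authors checked reads with FastQC 0.11.8 and quantified transcripts with Salmon 1.2, using the rat build rn4 to which human insulin had been added. The deposited values are TPM per transcript, written with decimal commas. Read with these, each of the 4 files sums to 1000000 over 31201 transcripts, and no value above 0 was the same in any pair of samples.

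TPM were summed per symbol. Scaling between samples used trimmed means of M values, unweighted, over genes with a mean of at least 1 TPM (30% of M and 5% of A trimmed at either end), giving factors from 0.960 to 1.02. Such genes were tested with limma 3.58.1 in R 4.3.3 on log2(TPM + 1), with empirical Bayes moderation that follows intensity and Benjamini-Hochberg adjustment. The study's DESeq2 test needs counts and was not repeated. The steps were checked on simulated TPM with known changes. The simulated noise was drawn from the spread that the fit itself had estimated, so this checks the code and not the calls. A gene symbol missing from the tables was not analysed here (Pthlh of the pathway lists, G6pc2, Pecam1 and Col1a2 of the markers, and Gapdh).

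The pathway members and all lists were chosen with earlier results of these data known, and the list of genes that every cell uses after the files were seen. Named are the 10 genes, up to 4 genes per list with the smallest p among those past the threshold, and the genes most like the tested member with the largest change. All other genes named with values (Gdf11, Inhbb, Acvr2a, Acvr2b, Acvr1c, Smad7, Tgfbi, Ccn2, Fst, Thbs1, Klf10, Klf11, Il11 and Myc, and the markers Ins2, Slc2a2 and Gcg) were chosen after their values were seen. The labels do not say whether samples sharing a replicate number were paired. Their deviations from the group means correlated at -0.0060 over 11960 genes, which cannot settle it, and the main fit used no pairing. Alternatives were the scaling, filter, pseudocount, intensity trend, replicate block, a threshold of 0.01 and each sample left out.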

Additional observations from a re-analysis of the deposited data

How the results depend on the processing

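Of all genes, 4541 were called, and 4814 with the replicate block, which changed no call among the 10 genes and ended that of Fkbp1a. At an adjusted p below 0.01, 1418 genes were called, 724 higher and 694 lower. They included 1 of the 10 genes, Tgfb2, and 7 genes of the pathway lists, all from the list of target genes. With each sample left out in turn the calls ran from 136 to 4515, of which 105 to 2282 were higher and 31 to 2233 lower, and the lone sample of a group was then assumed to vary like the other group. The low ends came without 3D replicate 1, and without 3D replicate 2 there were 1037. Calls in the pathway lists ran from 3 to 16 and those among the 10 genes from 1 to 2. With a mean of at least 5 TPM required, 1 of the 10 genes was called, since Tgfb2 was then not tested.

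Tgfb2 had log2 fold changes from 2.42 to 4.87 in the 11 settings that tested it. With all 4 samples kept, its adjusted p ran from 0.00032 to 0.0171. Except without the filter, it was tested only because its 3D samples were high, so these settings are not independent support. Tgfbr1 passed in 8 of 12. The log2 fold change of Smad2 ran from -0.072 without 3D replicate 2 (adjusted p = 0.575), where it changed sign, to 0.097 without 3D replicate 1. Acvr1b, Smad2 and Smad3 passed in none of the settings that tested them. No counting error was computed for values under 1 TPM, and precision is that of 2 samples per group.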

Other observations

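Among genes under the filter in the pathway lists, Fst and Thbs1 were chosen after their values were seen. Fst encodes follistatin, which binds and blocks activin. It had 0.0739 and 0.0403 TPM in 2D culture and 0.556 and 0.695 TPM in 3D culture, with a log2 fold change of 0.61 and an adjusted p of 0.0179 in the fit without the filter. Relative to Inhba, Fst stood at 0.188 and 0.209 in the 2D samples and at 0.935 and 1.81 in the 3D samples. Thbs1, the gene of thrombospondin 1, a known activator of latent TGF-beta, had 0.00976 and 0.0507 TPM in 2D culture and 0.474 and 0.404 TPM in 3D culture, with an adjusted p of 0.0181 in the same fit. All these levels lay below 1 TPM, and 21.4% of the 16749 genes above 0 had an adjusted p below 0.05 in that fit. The activin receptor gene Acvr1c, also under the filter, had 0.599 and 0.432 TPM in 2D culture and 0.934 and 0.942 TPM in 3D culture, with an adjusted p of 0.0415 in that fit.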
